A study of Mus musculus with 7 samples.

Results

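Transcripts of 8 genes that link temperature to RNA handling were followed in ERα+ neurons of the medial preoptic area (MPA), a hypothalamic region that controls body temperature. They comprised the cold-inducible RNA-binding proteins Cirbp and Rbm3, the cold-shock domain proteins Ybx1 and Ybx3, and the CDC-like kinases Clk1, Clk2, Clk3 and Clk4. The genes were chosen by symbol among the 24062 gene symbols counted, and all 8 were among the 14407 genes tested. By the study's methods the neurons came from adult female ERα-ZsGreen mice, although the counts of sex-linked genes given below go against that sex. The line is a transgenic reporter on a C57BL/6J background in which green fluorescence marks ERα+ cells. The labels name no other allele or agent in either group. During slice recordings the preparation was warmed by 5 °C from room temperature, which left it below the body temperature of mice. The aspirated contents of 2 neurons with a similar response were pooled as 1 sample. The 4 temperature-responsive (TR) samples held neurons that increased their firing on warming and the 3 non-responsive (NR) samples held neurons that did not reach the cutoff for such a response, so that both groups had been warmed and differed by their response. The study's text gives different cutoffs for that response in different sections, and the labels give none.

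CIRBP and RBM3 each carry an RNA recognition motif followed by a glycine-rich tail, and their levels are known to rise in mildly cooled cells. YBX1 and YBX3 bind messenger RNA through a cold-shock domain, a fold shared with the cold-shock proteins of bacteria, and influence the translation and stability of the messages they bind. CLK kinases phosphorylate SR proteins, which select splice sites, and their kinase activity is known to increase when temperature falls within the physiological range. Transcripts of Clk1 and Clk4 are also known to be stored in the nucleus with introns retained and to be spliced on stress. Counts per gene do not separate such stored forms from the mature messages.

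Totals were 1914497 to 2814360 counts in TR and 3309361 to 5125280 in NR samples, and 19852 to 21177 genes were detected in TR against 17818 to 19820 in NR samples. In both measures the groups did not overlap. The mean GC content of the counted transcripts was also separate, at 47.8 to 48.2% in TR and 48.6 to 48.9% in NR samples. Every neuronal, GABAergic and Esr1 marker gene had at least 3 counts in every sample, and so did all markers of astrocytes, oligodendrocytes, microglia, endothelium and choroid plexus. The study used females, whereas the Y-linked gene Ddx3y had 684 to 1150 counts and Xist 2 to 14 counts in each sample. Rbm3 is the X-linked gene among the 8.

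The stretches of coding sequence that define each family are shown because they give the relation between the genes compared. All are from mm10, read 5′ to 3′ on the coding strand. In Cirbp and Rbm3, capitals mark the codons of RNP1, the short motif of the RNA recognition motif that contacts RNA. Both lie in exon 3, at chr10:80170045-80170080 on the plus strand and at chrX:8144615-8144650 on the minus strand, and 26 of the 36 bases are identical.
Cirbp: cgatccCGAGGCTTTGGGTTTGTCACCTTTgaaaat
Rbm3: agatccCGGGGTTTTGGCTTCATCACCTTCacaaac
In Ybx1 and Ybx3, capitals mark the corresponding RNP1 motif of the cold-shock domain. Both stretches span the junction of exons 2 and 3 on the minus strand, at chr4:119285139-119293770 and chr6:131383531-131384531 with the intron included, and 24 of the 33 bases are identical.
Ybx1: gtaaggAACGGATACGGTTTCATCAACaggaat
Ybx3: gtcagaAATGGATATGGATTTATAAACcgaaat
In the 4 CLK genes, capitals mark the signature after which this kinase family is called LAMMER. In Clk3 they encode a variant of these letters. The signature is in exon 11 of each gene. It lies at chr1:58412985-58413014 (minus strand) for Clk1, chr3:89175404-89175433 (plus) for Clk2, chr9:57752153-57752182 (minus) for Clk3 and chr11:51280370-51280399 (plus) for Clk4. Between any pair of them, 21 to 25 of the 30 bases are identical.
Clk1: agggaacatTTAGCAATGATGGAAAGGatt
Clk2: agagagcatCTAGCCATGATGGAAAGGatc
Clk3: agagaacacTTGGTTATGATGGAGAAGatt
Clk4: aaagagcacCTGGCAATGATGGAGCGGatc

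Between TR and NR neurons, the transcripts of the CLK family moved in both directions while those of the cold-inducible and cold-shock domain proteins did not pass the test. Clk1 was 1.46-fold higher in TR, whereas Clk2 and Clk3 were 0.664-fold and 0.724-fold of their NR levels. Counts were compared with edgeR's quasi-likelihood test over all 14407 genes, at a Benjamini-Hochberg adjusted p of 0.05. Of the 8 genes, 3 passed, beside 30.0% of all genes tested, so the share that passed was near the background. In the higher direction 1 of the 8 passed (15.1% of all genes) and in the lower direction 2 (14.9% of all genes). For 4 of the 8, namely Rbm3, Clk1, Clk2 and Clk3, the samples of the 2 groups did not overlap, beside 35.4% of all genes. Levels are given as CPM, counts scaled to a common total with TMM, and differences as log2 fold changes of TR over NR. Below, genes said to have risen or fallen were higher or lower in TR than in NR samples.

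**Figure D1:**
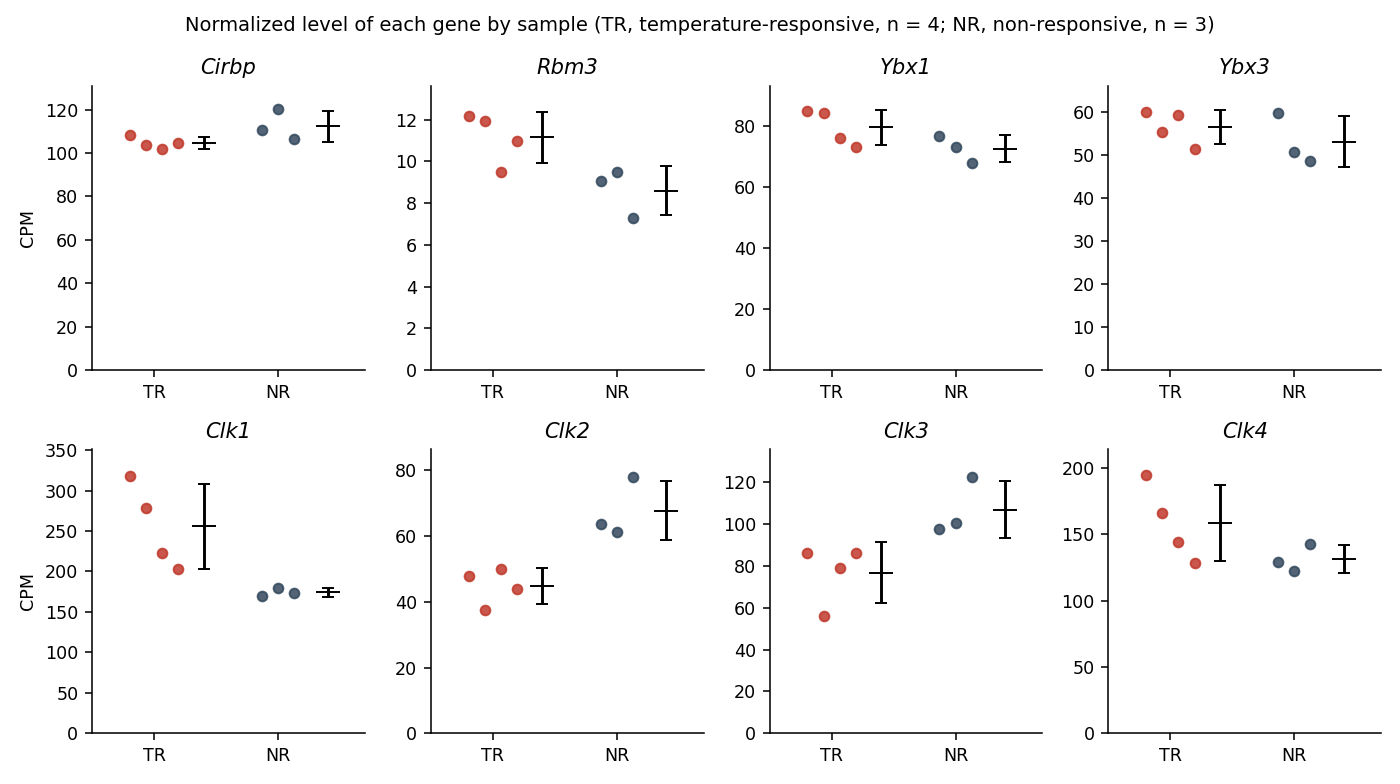
CPM (y axis, from 0) of each of the 8 genes in the 4 TR (red) and 3 NR (dark blue) samples, with the group mean and SD as black bars. Clk1 lies higher in every TR than in every NR sample, Clk2 and Clk3 lie lower, and Cirbp, Ybx1, Ybx3 and Clk4 overlap between groups.

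Cirbp (chr10:80165985-80172786, plus strand) was steady across the samples. Its level was 108.5, 103.6, 102.0 and 104.4 CPM in TR samples 1 to 4 and 110.4, 120.3 and 106.5 CPM in NR samples 1 to 3. The groups overlapped, with the highest value in NR sample 2. The means were 104.6 ± 2.78 CPM (SD, n = 4) and 112.4 ± 7.15 CPM (SD, n = 3), a log2 fold change of -0.10 with a 95% interval of -0.31 to 0.10 (SE 0.101, edgeR adjusted p = 0.456).

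Rbm3 (chrX:8138975-8145880, minus strand) was the least abundant of the 8, with 22 to 50 counts per sample. It was at 12.2, 11.9, 9.51 and 11.0 CPM in TR and 9.05, 9.47 and 7.26 CPM in NR samples. Every TR sample lay above every NR sample, by a narrow margin between TR sample 3 and NR sample 2. The log2 fold change of 0.37 had a 95% interval of -0.20 to 0.93 and did not pass (SE 0.274, edgeR adjusted p = 0.326). The annotation places 94 exonic bases (2.00% of the total) of Rbm3 under an antisense gene, Rbm3os, and the processed pseudogene Rbm3-ps on chromosome 1 was not analysed here.

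Because cooling is known to raise both cold-inducible genes together, their ratio within a sample was also compared, which does not rest on the scaling of the libraries. The log2 ratio of Rbm3 to Cirbp was -3.10, -3.05, -3.34 and -3.18 in TR and -3.52, -3.58 and -3.77 in NR samples, so that Rbm3 was higher relative to Cirbp in every TR sample. The means differed by 0.46 (two-sided exact permutation test over samples, p = 0.0286, as low as this design can go). After adjustment over the 8 ratios tested within families, p was 0.0571 by the same exact test and did not pass. At the lowest p possible the adjusted value is set by the other ratios, so it cannot decide about this one. The longest transcripts differ in base composition, with a GC content of 53.7% for Cirbp and 41.5% for Rbm3. Over the coding sequence alone the values are closer, at 58.3% and 52.4%. When an offset for the GC content of the longest transcript was included in the fit, the log2 fold change of Rbm3 was 0.17. That of Cirbp was -0.032, and neither passed.

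Neither gene of the cold-shock domain pair passed the test, and both overlapped between groups. Ybx1 (chr4:119277981-119294604, minus strand) was at 84.7, 84.1, 76.1 and 72.9 CPM in TR and 76.6, 73.0 and 67.7 CPM in NR samples, with overlap in the lower TR samples. Its log2 fold change was 0.13, with a 95% interval of -0.11 to 0.37 (edgeR adjusted p = 0.420). Ybx3 (chr6:131364855-131388476, minus strand) was at 59.9, 55.3, 59.2 and 51.3 CPM in TR and 59.7, 50.6 and 48.6 CPM in NR samples. Here NR sample 1 lay among the highest TR samples. The log2 fold change was 0.10, with a 95% interval of -0.18 to 0.37 (edgeR adjusted p = 0.616). The log2 ratio of Ybx3 to Ybx1 was -0.49 ± 0.0991 (SD, n = 4) in TR and -0.45 ± 0.0857 (SD, n = 3) in NR samples, a difference of -0.037 (exact permutation test, two-sided, p = 0.543). A processed pseudogene of Ybx1, Ybx1-ps2 on chromosome 6, was not analysed here.

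Clk1 (chr1:58410189-58424066, minus strand) was the CLK gene that passed as higher in TR neurons. It was at 317.6, 278.7, 223.0 and 202.8 CPM in TR samples 1 to 4 and at 169.3, 180.0 and 173.6 CPM in NR samples. All TR samples were above all NR samples, and the TR samples spread more widely than the NR samples. The means were 255.6 ± 52.4 CPM (SD, n = 4) and 174.3 ± 5.41 CPM (SD, n = 3), and the log2 fold change was 0.54, with a 95% interval of 0.29 to 0.80 (SE 0.121, edgeR adjusted p = 0.00217).

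Clk4 (chr11:51261730-51281766, plus strand), the gene most like Clk1 in its known storage with retained introns, was also highest in TR samples 1 and 2. It was at 194.6, 165.9, 144.4 and 128.5 CPM in TR and 129.1, 122.4 and 142.9 CPM in NR samples. TR sample 4 lay inside the NR range. The log2 fold change of 0.26 had a 95% interval of 0.02 to 0.50 and an edgeR p of 0.0359, which was 0.0953 after adjustment. Clk4 passed the threshold with upper quartile scaling (log2 fold change 0.33, adjusted p = 0.0347) and without TR sample 4 (0.36, adjusted p = 0.0264). A small RNA gene, Gm25082, shares 59 exonic bases (1.02%) with Clk4.

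Clk2 (chr3:89164795-89176921, plus strand) was lower in TR neurons. Its level was 47.7, 37.4, 50.1 and 43.9 CPM in TR and 63.7, 61.4 and 78.0 CPM in NR samples. No TR sample reached the NR range. The means were 44.8 ± 5.53 CPM (SD, n = 4) and 67.7 ± 9.02 CPM (SD, n = 3), a log2 fold change of -0.59 with a 95% interval of -0.88 to -0.30 (SE 0.140, edgeR adjusted p = 0.00303).

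Like Clk2, Clk3 (chr9:57750624-57765860, minus strand) was lower in TR neurons. It was at 86.1, 55.9, 79.0 and 86.4 CPM in TR and 97.5, 100.4 and 122.4 CPM in NR samples. The groups did not overlap, with TR sample 2 as the lowest and NR sample 3 as the highest. The log2 fold change was -0.47, with a 95% interval of -0.74 to -0.20 (SE 0.130, edgeR adjusted p = 0.00931). Without NR sample 3 the value was -0.36 and no longer passed (adjusted p = 0.0748). Clk3 shares 1284 exonic bases (15.2%) with Edc3 on the opposite strand, and whether reads there were counted by strand is not given in the sources used here.

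The GC content of the transcripts moved with these differences. The longest transcripts of Clk1 and Clk4 have a GC content of 39.2% and 38.8%, against 55.4% for Clk2 and 52.6% for Clk3, and over the coding sequence alone the values are 42.1%, 43.2%, 53.7% and 58.4%. When all genes with a GC value were divided into 10 bins of equal size, the bin of lowest GC content, which includes Clk1 and Clk4, had a median log2 fold change of 0.32. The medians were -0.12 in the bin that includes Clk3 and -0.15 in the bin that includes Clk2. TR samples 1 and 2, which had the highest Clk1 and Clk4 levels, also had the lowest mean GC content of counts (both 47.8%). With an offset for GC content in the edgeR fit, the log2 fold change of Clk1 was 0.28 (SE 0.0999, adjusted p = 0.0459), that of Clk2 was -0.48 (adjusted p = 0.0112) and that of Clk3 was -0.41 (adjusted p = 0.0191). These 3 genes still passed, beside 23.9% of all genes with that offset. The value for Clk4 turned to -0.019 (adjusted p = 0.914).

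**Figure D2:**
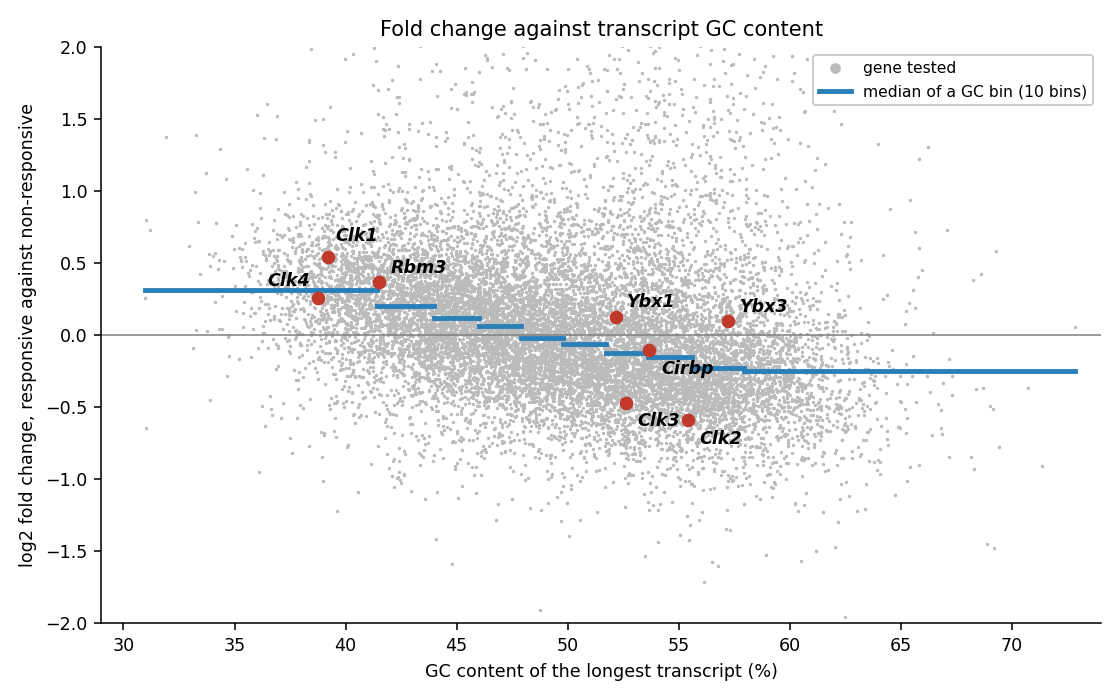
Log2 fold change of TR over NR (y axis) against the GC content of each gene's longest transcript (x axis, %), with grey points for 14122 genes, blue lines for the median of each of 10 GC bins, and red points for the 8 genes. A further 173 genes lie beyond the y axis limits of ±2. Clk1 lies above the median of its bin and Clk2 and Clk3 lie below theirs, while Clk4 lies close to it.

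The count of detected genes, which separated the groups, was also entered as a covariate. In that fit none of the 8 genes passed in edgeR and 1 gene passed among all tested, although 2061 genes, Clk1 and Clk4 among them, had an unadjusted p under 0.05. The log2 fold changes were 0.72 for Clk1 (edgeR adjusted p = 0.133, unadjusted 0.00114) and 0.51 for Clk4 (edgeR adjusted p = 0.215, unadjusted 0.00935). Those of Clk2 and Clk3 were -0.28 and -0.14. The groups were close in this covariate at their nearest samples, with 19852 genes detected in TR sample 1 and 19820 in NR sample 1.

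**Figure D3:**
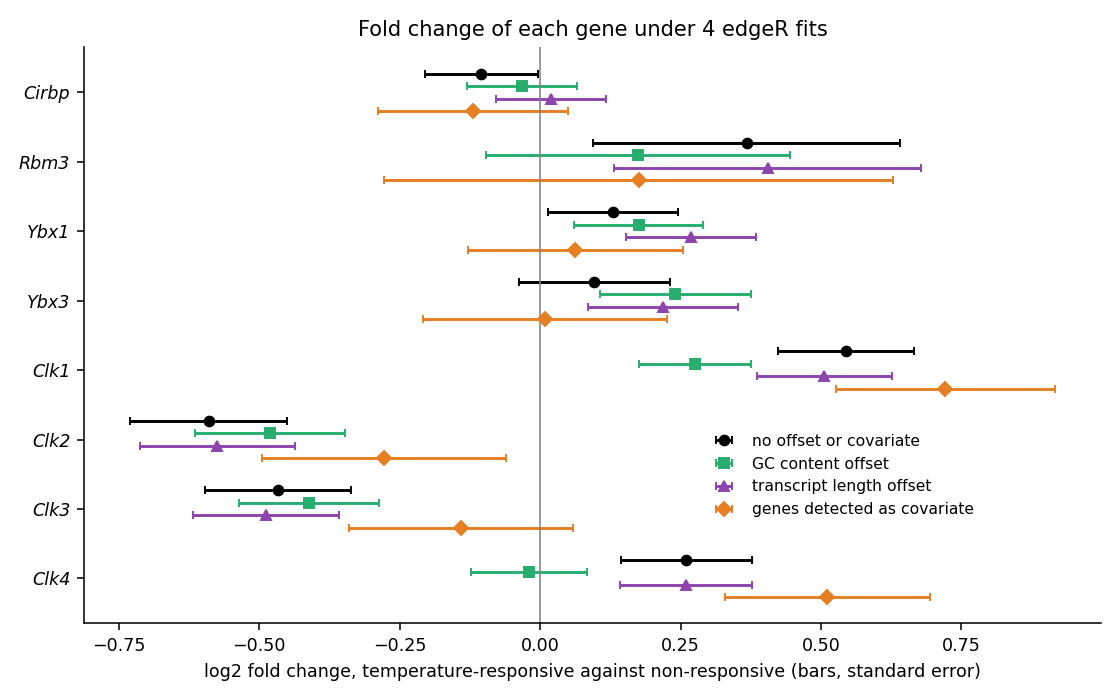
Log2 fold change of TR over NR (x axis) with its standard error (bars) for each of the 8 genes (y axis) under 4 edgeR fits, without offset or covariate (black), with a GC content offset (green), with a transcript length offset (purple) and with the count of detected genes as covariate (orange). The values of Clk1 stay above 0 and those of Clk2 and Clk3 below 0 in all 4, whereas Clk4 is near 0 with the GC content offset. With the covariate the bar of Clk3 crosses 0.

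The summed markers of endothelium and of GABAergic neurons were also separate between groups. The summed level of 4 endothelial markers was 68.3 to 249.0 CPM in TR and 14.5 to 50.8 CPM in NR samples, and 2 of the 4 passed as higher. The summed level of the 3 GABAergic markers was 879 to 1409 CPM in TR and 781 to 849 CPM in NR samples, and 1 of the 3 passed as higher. Esr1 was at 4.68 to 11.4 CPM in TR and 3.60 to 6.34 CPM in NR samples. The summed ranges of the neuronal, astrocyte, oligodendrocyte, microglial and choroid plexus markers overlapped between groups. For neuronal markers they were 2822 to 3242 CPM in TR and 2582 to 2917 CPM in NR samples. For oligodendrocyte markers they were 2796 to 3801 and 2372 to 3000 CPM, and for astrocyte markers 1408 to 1631 and 1255 to 1435 CPM. The levels given are therefore those of whole samples and not of neurons alone. Single markers of the lists with overlapping ranges also passed, beside 30.0% of all genes. They were 4 of 6 neuronal markers (2 higher and 2 lower), 3 of 5 astrocyte and 3 of 5 oligodendrocyte markers (2 higher and 1 lower in each), 2 of 5 microglial markers (1 higher and 1 lower) and 1 of 3 choroid plexus markers (higher). The part of these transcripts in the CLK differences was not tested. Since each sample is a pool, fewer cells of a type and less RNA per cell cannot be told apart.

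To compare levels between genes, CPM was divided by the exonic length of each gene. On this scale Cirbp was the most abundant of the 8, with a mean over the 7 samples of 41.5 CPM per kilobase, followed by Ybx1 at 30.2, Clk1 at 27.1, Clk4 at 25.3, Ybx3 at 17.9, Clk3 at 10.6, Clk2 at 10.3 and Rbm3 at 2.14 CPM per kilobase. Cirbp was separate from Ybx1 in both groups. In TR samples Clk1 (24.9 to 39.1 CPM per kilobase) overlapped with both Ybx1 (28.8 to 33.5) and Clk4 (22.2 to 33.6). In NR samples Clk1 (20.8 to 22.1) overlapped only with Clk4 (21.1 to 24.7) among these and lay below Ybx1 (26.8 to 30.3). Clk2 and Clk3 did not differ beyond their spread in either group. Within the groups neighbours changed places, since in TR samples the mean of Clk1 (31.43) was just above that of Ybx1 (31.38), and in NR samples those of Clk4 (22.7) and Clk2 (12.8) were above those of Clk1 (21.4) and Clk3 (12.6). The order over all samples was the same when the longest transcript was used in place of the exonic length. Both lengths come from GENCODE M21, and the annotation used for the counts is not given in the sources used here.

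The makeup of the CLK transcripts was separate between groups, whereas their sum overlapped. Clk1 made up 41.0 ± 3.24% (SD, n = 4) of the summed CLK level per kilobase in TR samples, ranging from 38.0 to 44.8%, and 30.9 ± 2.41% (SD, n = 3) in NR samples, from 28.4 to 33.2%. Clk4 made up 35.7 ± 1.60% and 32.6 ± 0.902%, respectively. The share of Clk2 was 11.2 ± 2.02% in TR and 18.3 ± 1.14% in NR samples, and that of Clk3 was 12.1 ± 2.96% and 18.1 ± 1.01%. For all 4 shares the samples of the groups did not overlap. The 4 shares divide the same sum, so they are not independent of each other. Among single genes 35.4% did not overlap, and no such background was computed for shares. The summed CLK level was 91.8, 76.6, 71.1 and 65.6 CPM per kilobase in TR and 66.6, 66.7 and 75.2 CPM per kilobase in NR samples, with overlap.

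**Figure D4:**
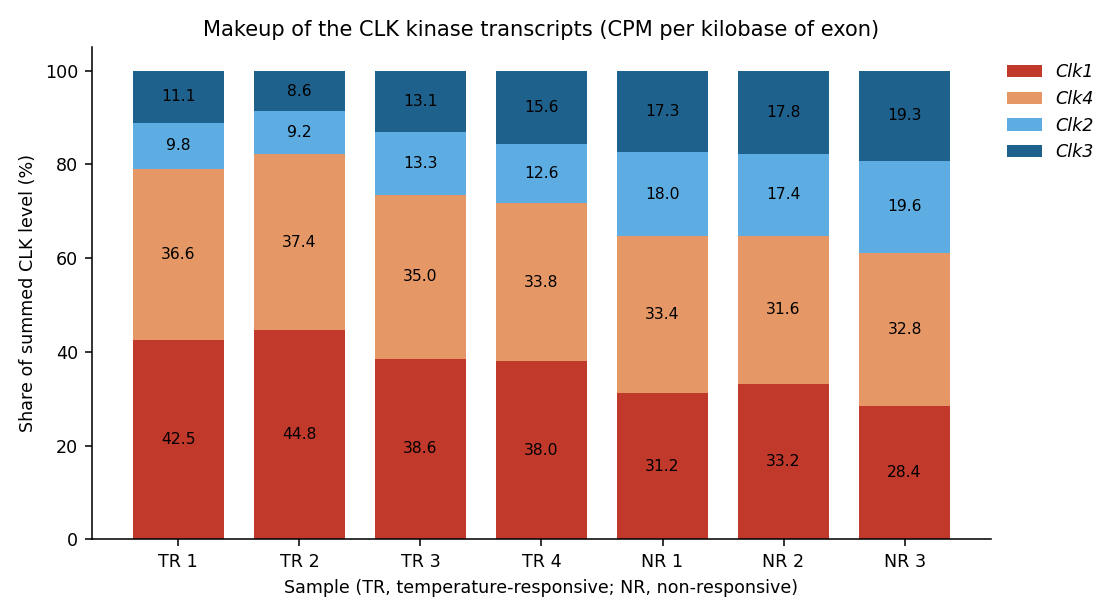
Share (y axis, %) of each CLK kinase in the summed CLK level, in CPM per kilobase of exon, for each TR and NR sample (x axis). Clk1 and Clk4 together take a larger part of every TR than of every NR bar, and each share is printed in its segment.

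Within the CLK family, the ratios of Clk2 or Clk3 to Clk1 or Clk4 were lower in every TR than in every NR sample. The same held for the ratio of Clk4 to Clk1. The log2 ratio of Clk2 to Clk1 was -2.72, -2.88, -2.14 and -2.19 in TR and -1.40, -1.54 and -1.15 in NR samples. The difference of -1.12 was larger than the spread within either group (exact permutation test, two-sided, p = 0.0286, and 0.0571 after adjustment over 8 ratios). The ratio of Clk2 to Clk4 differed by -0.84 and that of Clk4 to Clk1 by -0.28, both with the same exact permutation p and adjusted p as that of Clk2 to Clk1. The ratios of Clk3 to Clk1 and Clk3 to Clk4 differed by -1.01 and -0.74 (exact permutation test, two-sided, p = 0.0571 for each, and 0.0762 adjusted). These 5 ratios did not overlap between groups. They share genes with each other, and how often ratios of other genes separate the groups was not measured. The ratio of Clk3 to Clk2 was 0.76 ± 0.180 (SD, n = 4) in TR and 0.65 ± 0.0479 (SD, n = 3) in NR samples and overlapped (exact permutation test, two-sided, p = 0.4). These shares and ratios carry no correction for GC content, with which the log2 fold change of Clk4 was -0.019, nearer to those of Clk2 (-0.48) and Clk3 (-0.41) than without it. None of the 8 ratios passed 0.05 after adjustment, and with 4 samples against 3 a single ratio cannot go below 0.0286. An adjusted p under 0.05 would have needed more of the 8 ratios at that value.

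**Figure D5:**
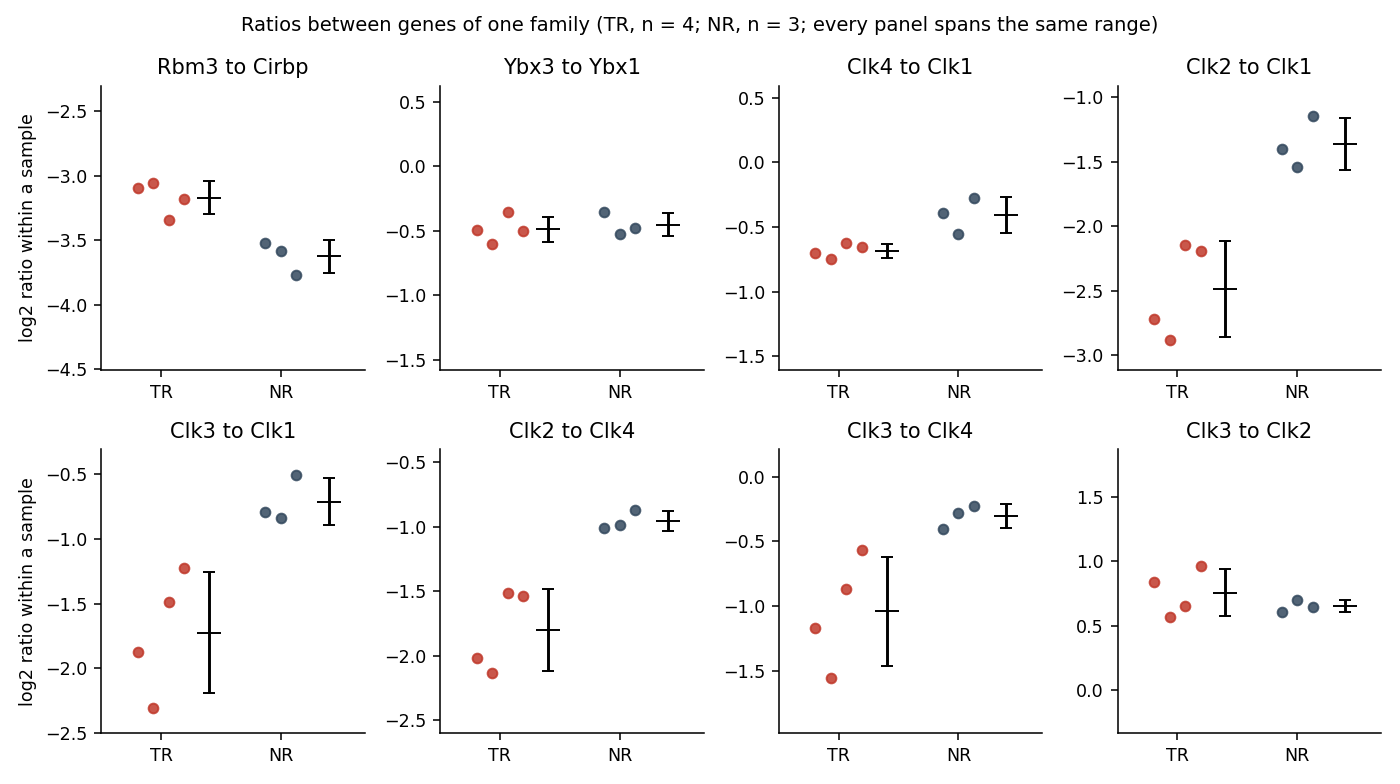
Log2 ratio of 2 genes of a family within a sample (y axis, 2.2 log2 units in every panel) for the 4 TR (red) and 3 NR (dark blue) samples, with the mean and SD as black bars. Ratios of Clk2 or Clk3 to Clk1 or Clk4, and of Clk4 to Clk1, are lower in every TR than in every NR sample. That of Rbm3 to Cirbp is higher.

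SR proteins, the substrates of the CLK kinases, were mostly higher in TR neurons. Of the 12 SR and SR-like genes tested, 8 rose and none fell, beside 15.1% of all genes that were higher. The median log2 fold change of the list was 0.34 and that of all genes tested was 0.0071. The largest rise was in Tra2b, an activator of exon inclusion, which was at 79.7 ± 5.53 CPM (SD, n = 4) in TR and 52.4 ± 6.59 CPM (SD, n = 3) in NR samples (log2 fold change 0.61, edgeR adjusted p = 0.00131). Without NR sample 2 or NR sample 3, 5 rose, while the genes higher over all tested went from 2176 to 1508 and 1343. With the GC content offset 6 of the 12 rose and none fell. Of all 14407 genes, 1603 were higher and 1843 lower with that offset. With the detected genes as covariate none of the 12 passed in edgeR, although 5 had an unadjusted p under 0.05. None of the other lists below had a gene past the threshold with that covariate. The list was chosen with earlier results of these data known, and its counts and median are a description.

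Other enzymes that act on SR proteins, together with the DYRK and HIPK relatives of the CLK kinases, moved both ways. Of 16 tested, 3 rose and 5 fell, with a median log2 fold change of 0.034, beside 15.1% of all genes that were higher and 14.9% that were lower. Without NR sample 3 the counts were 3 and 2, beside 1343 genes higher and 1277 lower over all tested. With the GC content offset 3 rose and 3 fell, beside 1603 and 1843 over all tested. Ppp1cb, a catalytic subunit of protein phosphatase 1, was at 756.1 ± 112 CPM (SD, n = 4) in TR and 445.5 ± 65.5 CPM (SD, n = 3) in NR samples (log2 fold change 0.76, edgeR adjusted p = 0.000166). Hipk2, a nuclear kinase that phosphorylates transcription regulators, was at 15.2 ± 3.91 CPM (SD, n = 4) in TR and 44.5 ± 10.5 CPM (SD, n = 3) in NR samples (log2 fold change -1.54, edgeR adjusted p = 6.57e-05).

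Among 7 tested relatives of the cold-shock domain and glycine-rich RNA-binding proteins, 2 fell, beside 14.9% of all genes that were lower, and the median log2 fold change was -0.016. Carhsp1, a small cold-shock domain protein that binds messenger RNA, was at 52.6 ± 8.90 CPM (SD, n = 4) in TR and 84.4 ± 5.80 CPM (SD, n = 3) in NR samples (log2 fold change -0.68, edgeR adjusted p = 0.000687). Of 7 genes known as regulators or targets of CIRBP and RBM3, 2 rose and none fell, beside 15.1% and 14.9% of all genes. The larger rise was in Hnrnph1, a splicing factor, at 268.4 ± 33.3 CPM (SD, n = 4) in TR and 196.0 ± 7.73 CPM (SD, n = 3) in NR samples (log2 fold change 0.45, edgeR adjusted p = 0.00220), and with the GC content offset none of the 7 passed in edgeR, 2 of them with an unadjusted p under 0.05. Without TR sample 1 or 2 or NR sample 2 or 3, 1 of them rose, beside 1966, 1541, 1508 and 1343 of all genes, respectively.

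Heat shock genes are the counterpart that warming is known to induce. Of 11 tested, 2 rose and 2 fell, near the 15.1% and 14.9% over all genes, with a median log2 fold change of -0.019. Hspa1b, an inducible HSP70 gene, was at 23.3 ± 4.76 CPM (SD, n = 4) in TR and 15.4 ± 1.13 CPM (SD, n = 3) in NR samples (log2 fold change 0.57, edgeR adjusted p = 0.0407). Its near-identical copy Hspa1a was at 26.1 and 24.5 CPM, and the division of reads between the copies is uncertain. Hsf1, the transcription factor of the heat shock response, was at 40.2 ± 3.35 CPM in TR and 60.0 ± 11.6 CPM in NR samples (log2 fold change -0.59, edgeR adjusted p = 0.00506). Without TR sample 1 or 2 or NR sample 2, 2 heat shock genes fell and none rose, and without NR sample 3, 1 fell and none rose. Over all genes, 1966, 1541, 1508 and 1343 were higher in these fits, in that order. Those lower were 1973, 1436, 1478 and 1277.

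Promoters of 6 of the 8 genes were found in RefSeq (GRCm38.p6), 7 in all since Cirbp had a second promoter. Rbm3 and Clk1 had no promoter there and were not searched. The 250 bases before the start were searched on both strands for 3 motifs. The letters TCCCCGCC, known as the mild cold response element of Cirbp, occurred in 4.64% of all promoters. They were in the promoter of Ybx3 and in the upstream promoter of Cirbp, but not in the second promoter of Cirbp. The heat shock element was searched as GAA, TTC and GAA with 2 bases between neighbours. It occurred in 0.466% of all promoters and in none of the 7 searched here. The cAMP response element TGACGTCA occurred in 1.55% of all promoters and in that of Clk4. A match describes the letters and not a site in use. The windows with the cold response element, shown in capitals, lie at chr10:80167589-80167635 (plus strand, within the Cirbp gene as annotated) and at chr6:131388477-131388531 (minus strand, before the start of Ybx3). Neither gene passed the test between TR and NR neurons.
Cirbp: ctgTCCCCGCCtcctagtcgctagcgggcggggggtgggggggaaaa
Ybx3: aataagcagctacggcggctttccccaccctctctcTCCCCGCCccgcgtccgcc

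The tested genes whose log2 CPM over the 7 samples was most like that of each gene are given by Pearson's r, as a description in which the points share the group, depth and GC differences above. For Cirbp they were BC005537 (r = 0.973) and Tmem53 (0.964), and for Rbm3 they were Snhg1 (0.989) and Mycn (0.987). For Ybx1 they were Msantd2 (0.981) and Atf4 (0.978), and for Ybx3 they were Purb (0.987) and AW822252 (0.979). Clk1 was closest to B230206H07Rik (0.993) and Hspa1b (0.992), and Clk4 to Etnk1 (0.989) and Ogt (0.988). Clk2 was closest to Tmub2 and Abcf1 (0.991 for both), and Clk3 to Anapc2 (0.993) and Naa35 (0.991).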

How the data were processed

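RNA of 4 TR and 3 NR samples, grouped and numbered by their labels, had been amplified with SMART-seq V4 and sequenced in a single lane. The authors aligned reads to mm10 with STAR, removed duplicates without molecular identifiers, which can also remove distinct molecules, and counted reads per gene with HTSeq. The deposited counts are raw. The submitters' processing notes name STAR 2.6.0, HTSeq 0.9.1 and FastQC 0.72. The gene annotation, strand setting and treatment of shared reads are not given in the sources used here.

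From these counts, edgeR 4.0.16 was fitted to genes that reached 10 counts in 3 or more samples (R 4.3.3, robust quasi-likelihood test, TMM, two-sided, Benjamini-Hochberg adjustment over all genes tested). CPM was taken over the tested genes, and log2 ratios and correlations used a prior count of 2. DESeq2 1.42.0, the study's tool, and limma 3.58.1 served as alternatives, as did other scalings, filters, a draw to equal depth, offsets (mgcv 1.9.3), a covariate, the replicate number as a block and leaving out each sample. The fit was tested on simulated data. GENCODE M21, in which 98.4% of symbols were found, gave the coordinates, exonic lengths and GC content. A floor of 3 counts was 0.585 to 1.57 CPM and covers counting error only.

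Same-group samples differed by more than counting noise (chi-square statistic over its degrees of freedom 2.03 to 5.11). Nothing says that they came from separate animals, so p-values measure the spread between these samples. The genes named were the 8, the 2 genes most correlated with each, and, from each related list, the largest rise and the largest fall that passed; 1 of these is not reported here. Members and lists were chosen with earlier results of these data known.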

Additional observations from a re-analysis of the deposited data

How the results depend on the processing

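The count of genes past the threshold was 4327. It was 1 with the detected genes as covariate, 2812 with a replicate block and GC content offset together, and 2620 to 4583 when each sample was left out in turn, the lowest without NR sample 3. With upper quartile scaling, 62.1% of calls were higher in TR, against 50.3% with TMM and 42.1% with library size only. Of the 8 genes, 3 passed, against none (0) with that covariate and 2 to 4 when a sample was left out. The sign turned for Cirbp with the transcript length offset (0.020) and for Clk4 with the GC content offset (-0.019), neither of them past the threshold. Without any one sample the log2 fold change stayed at 0.42 to 0.65 for Clk1 and -0.66 to -0.47 for Clk2, both passing each time, and at -0.52 to -0.35 for Clk3. All 3 kept their sign under each of the 20 alternatives. The differences in log2 ratio kept their sign in each such omission, except Ybx3 to Ybx1 (-0.081 to 0.010).

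Same-numbered samples of the groups did not deviate together (correlations -0.128, -0.062 and 0.032, with 0 of 6 samples closest to their own number), so the numbers were not taken as pairs. With the replicate block 4124 genes passed, 3750 of them shared with the fit without it, and Clk4 passed (log2 fold change 0.34, adjusted p = 0.0224), which made 4 of the 8 genes. In edgeR without the filter on low counts, 5641 genes passed.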
